A study of Homo sapiens with 16 samples.

Results

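Transcripts of the receptors for glutamate, GABA and glycine were described in the human neuroblastoma line SK-N-SH. A gene was taken as a member when its platform symbol named an AMPA, kainate, delta or NMDA receptor subunit, a metabotropic glutamate receptor, a GABA-A, GABA-A rho or GABA-B receptor subunit, or a glycine receptor subunit. This gave 47 of the 18239 genes on the Human Genome U219 array, each read from its single-symbol probe set of highest mean over the 16 arrays. The symbol alone decided membership. The mean over all 16 arrays can itself reflect differences between conditions, so these could affect which probe set was read. The 4 groups held 4 arrays each, namely an untreated group and groups given risperidone, an antipsychotic that blocks dopamine and serotonin receptors, at 10 µM for 6, 24 or 48 h. According to the treatment protocol the controls received the DMSO vehicle, although the sample labels call them untreated, and no harvest time is given for them. The same 4 control arrays were the reference for every exposure. The replicates are called biological and nothing says that they were separate cultures, so the p-values reflect sample-to-sample spread that may be technical.

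Glutamate opens the AMPA, kainate and NMDA receptors, which are cation channels, and acts more slowly through metabotropic receptors coupled to G proteins. GABA opens chloride channels of the GABA-A class and signals through the G-protein-coupled GABA-B receptor, while glycine opens chloride channels that are anchored by their beta subunit. These receptors are best known from central synapses, and sympathetic neurons and neuroblastoma cells are known to carry transcripts of some of them.

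Values are log2 expression values from robust multi-array average (RMA) processing, between 2.57 and 13.98 over the table. Array medians lay between 4.5 and 4.62, and arrays correlated at 0.996 to 0.999 within a group and at 0.968 to 0.978 between untreated and treated cells (13680 tested genes). Genes in the lowest 25% by mean were left out of the test as dim. Of the 47 receptor genes, 21 passed this filter, with means from 3.69 for GRIA1 to 7.46 for GRIA2. The other 26 had means of 2.99 to 3.61 and no array above 4.11. They were GRIK1, GRIK4, GRIN2A, GRIN2B, GRIN2D, GRIN3A, GRIN3B, GRM3, GRM5, GRM6, GABRA4, GABRA6, GABRB1, GABRB2, GABRD, GABRE, GABRG1, GABRG3, GABRP, GABRQ, GABRR1, GABRR2, GABRR3, GABBR2, GLRA1 and GLRA3. The filter cuts through the class at GABRD, with a mean of 3.61 just outside, and at GRIA1, with 3.69 just inside. GRIA4, GRM2 and GRM8 had untreated means of 3.60, 3.60 and 3.53, below the lowest tested mean of 3.65, and so were tested through their treated arrays.

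Receptor genes of several classes were called higher after risperidone and few lower, but the share called was below that of all tested genes. At 6 h GRIA2, GRIA4, GRIK2, GRIK5, GRID1, GRIN1, GRM8 and GABRA3 rose and GRIA3 fell (limma, adjusted p under 0.05). These 9 of 21 tested members compare with 53.3% of all tested genes called at 6 h, 36.6% of them higher and 16.7% lower. At 24 h 7 members rose and 0 fell, against 52.1% of all tested genes, and at 48 h 8 rose and 1 fell, against 57.0%. GRIA4 and GRM8, counted among the rises at each time, passed the filter only through their treated arrays. Of all tested genes, 35.3% were higher and 16.9% lower at 24 h, and 36.0% were higher and 21.0% lower at 48 h. The share of receptor genes called was thus 42.9% at 6 h, 33.3% at 24 h and 42.9% at 48 h, below the share of all tested genes at each time. The median change of the 21 members was 0.11 at 6 h, 0.17 at 24 h and 0.13 at 48 h, beside 0.09, 0.09 and 0.075 for all tested genes. At 24 h the calls became 5 higher and 1 lower with cyclic loess scaling, and 10 higher and 0 lower with arrays centred on their medians. With cyclic loess the medians of the members were 0.03, 0.08 and 0.06, and among all genes the share of calls that were higher moved from 67.6% to 46.2%.

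**Figure D1:**
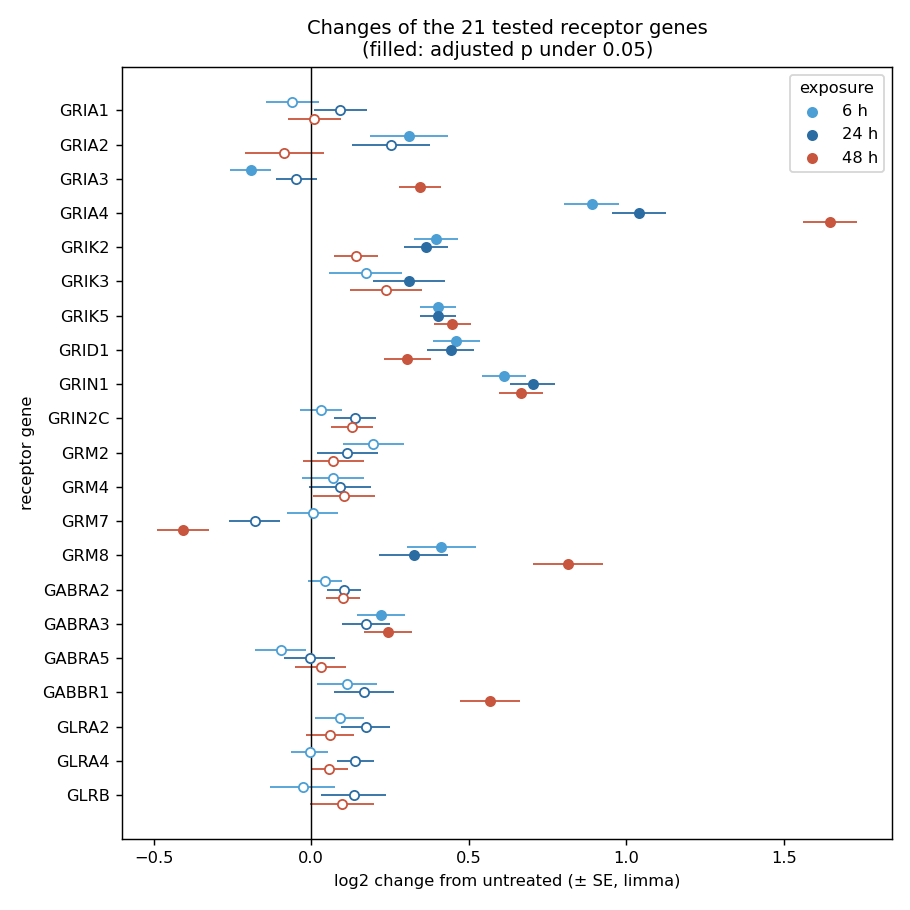
Log2 change from untreated for the 21 tested receptor genes at 6, 24 and 48 h, with standard errors from limma and n = 4 arrays a group. Filled points passed an adjusted p of 0.05. GRIA4 lies farthest right at every time, reaching 1.65 at 48 h, and GRM7 lies farthest left at 48 h, at -0.41.

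AMPA receptor subunits moved in different directions. GRIA4, which encodes the GluA4 subunit, measured 3.63, 3.70, 3.47 and 3.60 in untreated cells, 4.39, 4.58, 4.51 and 4.48 at 6 h, 4.61, 4.70, 4.86 and 4.39 at 24 h, and 5.06, 5.28, 5.30 and 5.35 at 48 h. Every treated array stood above every untreated array, and the 48 h arrays stood above all others. GRIA4 rose at 6 h by 0.89 ± 0.09 (SE), at 24 h by 1.04 ± 0.09 and at 48 h by 1.65 ± 0.09, the last with adjusted p = 4.6e-11. Its other probe set rose less, by 0.38, 0.54 and 0.57, from an untreated mean of 3.32. The untreated mean of 3.60 was below the lowest tested mean, so GRIA4 was tested through its treated arrays, and no fold change is given.

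GRIA2, whose GluA2 subunit makes AMPA channels nearly impermeable to calcium, measured 7.42, 7.36, 7.47 and 7.11 in untreated cells, 7.85, 7.69, 7.56 and 7.50 at 6 h, 7.65, 7.49, 7.60 and 7.63 at 24 h, and 6.81, 7.37, 7.27 and 7.57 at 48 h. The 6 h arrays lay above all untreated arrays, whereas the 48 h arrays reached both below and above the untreated range. The rise at 6 h was 0.31 ± 0.12 (adjusted p = 0.0455), and the values at 24 h (0.25 ± 0.12, adjusted p = 0.101) and 48 h (-0.085 ± 0.12, adjusted p = 0.583) did not pass. The other probe set, with group means of 5.76 to 6.455, changed by 0.34 at 6 h, which missed the threshold (adjusted p = 0.0657), and fell at 48 h (-0.355, adjusted p = 0.0499). The 6 h call was lost in 12 of the 16 fits that each left out 1 array, with adjusted p up to 0.149 without untreated replicate 4, and with cyclic loess (0.16, adjusted p = 0.303), no filter on dim genes (adjusted p = 0.0523) and the replicate block (adjusted p = 0.0719). GRIA1, the GluA1 subunit gene, showed changes of -0.06 to 0.09 at the 3 times and did not pass.

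The 4 probe sets of GRIA3, the GluA3 subunit gene, disagreed, most of all at 48 h, and its array values are given for that reason, a choice made after they were seen. The probe set of highest mean measured 4.39, 4.52, 4.49 and 4.39 in untreated cells and 4.82, 4.88, 4.65 and 4.82 at 48 h. It fell by 0.19 ± 0.07 at 6 h and rose by 0.345 ± 0.07 at 48 h. A second probe set measured 5.08, 4.81, 4.75 and 4.81 in untreated cells and 3.89, 3.70, 3.89 and 3.35 at 48 h. Thus all 4 arrays at 48 h were above the untreated range in the first and below it in the second. Tested by themselves, the 3 other probe sets fell at 48 h, with changes of -0.91, -1.155 and -0.62 (adjusted p = 2.35e-06, 3.59e-07 and 0.000132). The mean of the 4 probe sets fell by 0.59 at 48 h (adjusted p = 4.21e-08), and no direction at 48 h can be given for the gene as a whole. They also differed at 24 h, when 2 of the other probe sets fell (-0.68 and -0.83, adjusted p = 8.23e-05 and 2.45e-05) and that of highest mean did not pass (-0.05). Without GRIA3, 8 receptor genes rose and 0 fell at 6 h, and 7 rose and 1 fell at 48 h. In the probe set of highest mean, the fall at 6 h was lost with trended and robust eBayes (adjusted p = 0.0536). It was also lost without untreated replicate 2 or 6 h replicate 2, 3 or 4 (-0.18 to -0.16, adjusted p = 0.0505 to 0.0668). Tested by themselves in limma, the 3 other probe sets changed in the same direction at 6 h, by -0.46, -0.63 and -0.16 (adjusted p = 0.00289, 0.00038 and 0.259).

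**Figure D2:**
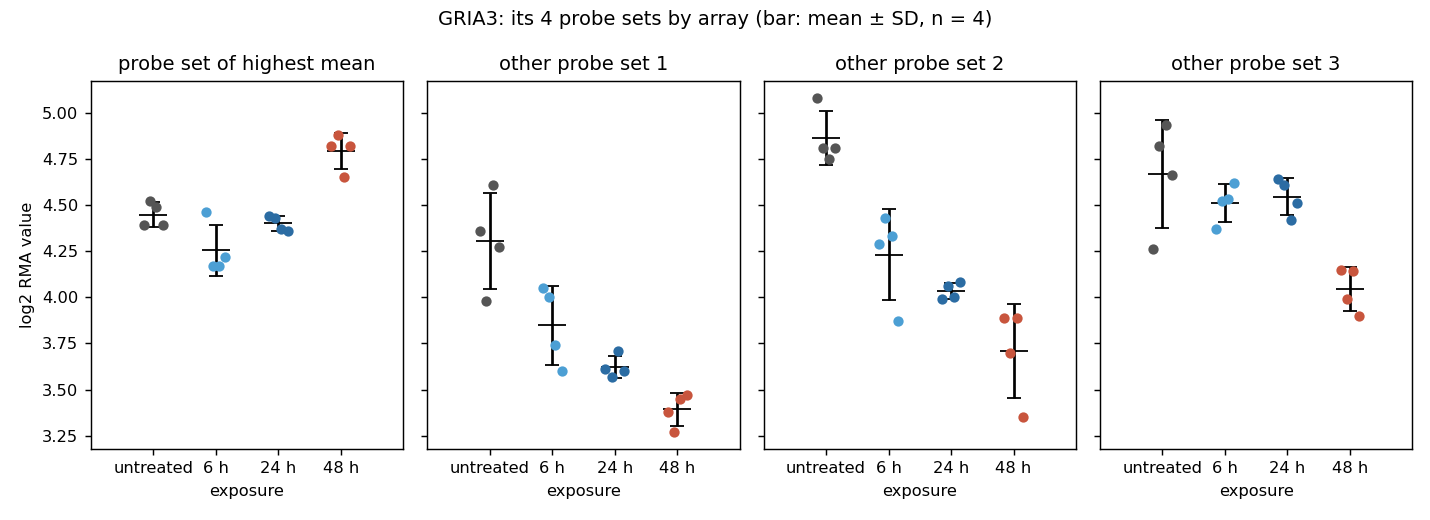
Log2 RMA values of the 4 probe sets of GRIA3 in each array, by exposure, with group means and SD (n = 4). The probe set of highest mean is higher at 48 h than in untreated cells, while the 3 others changed by -1.155 to -0.62.

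Among kainate receptor subunits, GRIK2, the GluK2 channel subunit gene, measured 6.68, 6.71, 6.76 and 6.61 in untreated cells, 7.06, 7.25, 7.16 and 6.87 at 6 h, 7.09, 6.99, 7.10 and 7.04 at 24 h, and 6.86, 6.77, 6.75 and 6.95 at 48 h. The 6 h and 24 h arrays stood above the untreated range and the 48 h arrays reached into it. GRIK2 rose by 0.395 ± 0.07 at 6 h (adjusted p = 0.000146) and 0.365 ± 0.07 at 24 h (adjusted p = 0.000306), while 0.14 ± 0.07 at 48 h did not pass (adjusted p = 0.0929). The 4 other probe sets had means near or below 4.3 in every group, and the mean over all 5 did not pass at 6 h (0.05) or 24 h (0.05). GRIK5, whose GluK5 subunit forms channels only together with GluK1 to GluK3 partners, rose by 0.40 ± 0.06, 0.40 ± 0.06 and 0.45 ± 0.06 at the 3 times, from an untreated mean of 4.39 ± 0.09 (SD, n = 4), and its treated arrays, from 4.70 to 4.91, lay above all untreated ones. GRIK3 passed only at 24 h (0.31 ± 0.12, adjusted p = 0.0328). That call was lost without untreated replicate 2, 3 or 4 or 24 h replicate 1 or 4 (0.25 to 0.28, adjusted p = 0.0814 to 0.1), with cyclic loess (0.23, adjusted p = 0.108) and with only the 8 arrays compared (adjusted p = 0.0625), and without untreated replicate 1, at 4.42 against 3.84 to 3.93, GRIK3 also passed at 6 h (0.31) and 48 h (0.37).

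The delta receptor gene GRID1, whose product binds cerebellins at synapses rather than glutamate, measured 4.51, 4.54, 4.52 and 4.32 in untreated cells and between 4.75 and 5.13 in treated cells. It rose at 6 h by 0.46 ± 0.07, at 24 h by 0.44 ± 0.07 and at 48 h by 0.305 ± 0.07 (adjusted p = 0.00215). Its 4 other probe sets all rose, by 0.44 to 0.605 at 6 h and 0.375 to 0.44 at 48 h.

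The NMDA receptor subunit gene GRIN1, which encodes the GluN1 subunit present in every NMDA receptor, measured 4.88, 5.03, 4.81 and 4.80 in untreated cells, 5.52, 5.30, 5.52 and 5.63 at 6 h, 5.72, 5.54, 5.49 and 5.58 at 24 h, and 5.49, 5.53, 5.58 and 5.58 at 48 h. All 12 treated arrays were above the untreated range, and the 3 exposure times overlapped. The rise was 0.61 ± 0.07, 0.70 ± 0.07 and 0.665 ± 0.07 (adjusted p = 1.34e-06, 2.53e-07 and 3.48e-07), or 1.63-fold at 24 h. Its 3 other probe sets had untreated means of 3.19 to 3.35, below the filter, and changed by 0.03 to 0.17 over the exposure times. The fold change of GRIN1 thus rests on its probe set of highest mean. The glutamate-binding partners of GluN1 were dim (GRIN2A, GRIN2B and GRIN2D) or did not pass, as for GRIN2C with 0.03, 0.14 and 0.13.

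Metabotropic receptors of group III, which lower cyclic AMP and sit mostly on nerve endings, moved apart. GRM8 measured 3.55, 3.47, 3.69 and 3.42 in untreated cells, 3.79, 4.02, 3.82 and 4.15 at 6 h, 3.87, 4.11, 3.77 and 3.68 at 24 h, and 4.61, 4.33, 4.10 and 4.35 at 48 h. The 48 h arrays were clear of the untreated range, and the lowest 24 h array fell just inside it. GRM8 rose at 6 h by 0.41 ± 0.11, at 24 h by 0.325 ± 0.11 (adjusted p = 0.0203) and at 48 h by 0.815 ± 0.11 (adjusted p = 6.38e-06), where the untreated mean of 3.53 was below the lowest tested mean and no fold change is given. The 24 h call was lost with cyclic loess (0.26, adjusted p = 0.068), without untreated replicate 4 (0.29, adjusted p = 0.06) and without 24 h replicate 2 (0.24, adjusted p = 0.0805), and the other probe set of GRM8, with means of 3.20 to 3.38, was below the filter. GRM7 ranged from 4.37 to 4.70 in untreated cells and from 3.97 to 4.24 at 48 h, without overlap, and fell by 0.41 ± 0.08 at 48 h (adjusted p = 0.000367). Its other probe set rose at 6 h (0.27, adjusted p = 0.00785), where the first changed by 0.005, and did not pass at 48 h (-0.065, adjusted p = 0.503). GRM4 measured 4.74, 4.76, 4.55 and 4.72 in untreated cells, 4.57, 4.76, 4.78 and 4.94 at 6 h, 4.82, 4.71, 4.77 and 4.83 at 24 h, and 4.60, 4.58, 4.96 and 5.05 at 48 h, and its groups overlapped throughout. Neither GRM4 nor GRM2, a group II receptor gene with changes of 0.07 to 0.20, passed at any time, although all 6 h arrays of GRM2 lay above its untreated range.

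**Figure D3:**
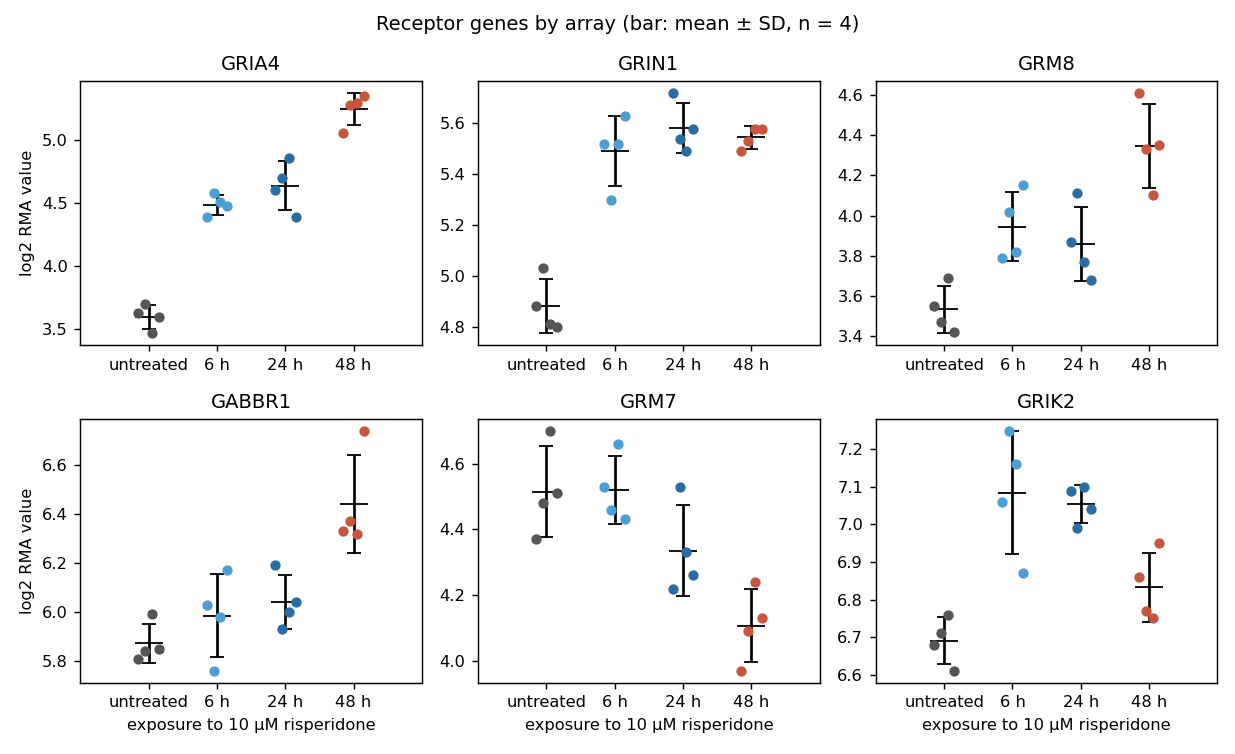
Log2 RMA values of 6 receptor genes in each of the 16 arrays by exposure to 10 µM risperidone, with the mean and SD of each group (n = 4) and a separate scale for each gene. GRIA4 and GRM8 are highest at 48 h, GRIN1 is level across exposure times, GABBR1 is high at 48 h alone, GRM7 is lowest at 48 h, and GRIK2 is higher at 6 h and 24 h than at 48 h.

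Of the GABA-A receptor genes, 3 alpha subunit genes were tested. GABRA3, for the alpha3 subunit, measured 4.05, 4.17, 4.29 and 4.02 in untreated cells, 4.24, 4.32, 4.34 and 4.51 at 6 h, 4.40, 4.19, 4.33 and 4.30 at 24 h, and 4.35, 4.35, 4.25 and 4.55 at 48 h. Each treated group overlapped the untreated one, through untreated replicate 3 at 4.29. The rise passed at 6 h (0.22 ± 0.08, adjusted p = 0.0225) and 48 h (0.24 ± 0.08, adjusted p = 0.0116), and 0.17 ± 0.08 at 24 h did not (adjusted p = 0.0676). The 6 h call was lost without untreated replicate 1 (0.19), untreated replicate 4 (0.18) or 6 h replicate 4 (0.17) and with cyclic loess (0.14), with adjusted p of 0.064 to 0.103, and the 48 h call with the mean of both probe sets (0.09, adjusted p = 0.2). GABRA2 and GABRA5 changed by -0.10 to 0.10 and did not pass. The rho subunit gene GABRR2 was dim, between 3.24 and 3.67 on all 16 arrays, with a mean of 3.49 in untreated cells and 3.39 at 48 h.

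GABBR1, which encodes the GABA-binding subunit of the GABA-B receptor, measured 5.81, 5.84, 5.99 and 5.85 in untreated cells, 6.03, 5.76, 5.98 and 6.17 at 6 h, 6.19, 5.93, 6.00 and 6.04 at 24 h, and 6.33, 6.37, 6.32 and 6.74 at 48 h. All 48 h arrays lay above the untreated range, and the groups at 6 h and 24 h overlapped it. The change was 0.11 ± 0.10 at 6 h and 0.17 ± 0.10 at 24 h, neither of which passed, and a rise of 0.57 ± 0.10 at 48 h (adjusted p = 6.86e-05), or 1.48-fold. Of its 2 other probe sets, one rose by 0.29 at 48 h (adjusted p = 0.00161) and the other changed by -0.065 (adjusted p = 0.563). GABBR2, for the partner subunit that carries GABBR1 to the cell surface and couples to G proteins, was dim, with group means of 3.345 to 3.385.

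Glycine receptor genes did not pass at any time. GLRB, for the beta subunit that binds the scaffold protein gephyrin, measured 6.89, 7.26, 7.43 and 7.15 in untreated cells, 7.06, 7.32, 7.15 and 7.09 at 6 h, 7.20, 7.40, 7.37 and 7.30 at 24 h, and 7.24, 7.46, 7.37 and 7.05 at 48 h. All 4 groups overlapped, and the changes were -0.03 ± 0.10, 0.135 ± 0.10 and 0.0975 ± 0.10. Of its 3 other probe sets, one rose by 0.20 at 24 h and 0.27 at 48 h (adjusted p = 0.0309 and 0.00425). GLRA2 and GLRA4, for ligand-binding alpha subunits, changed by -0.01 to 0.17.

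Without a filter on dim genes, 9 of 47 receptor genes were called at 6 h against 40.6% of 18239 genes, 9 at 24 h against 39.5%, and 13 at 48 h against 43.2%. The corresponding counts were 0 from 6 h to 24 h against 1.61%, 5 from 24 h to 48 h against 19.8%, and 8 from 6 h to 48 h against 24.3%.

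The exposure times were also set against each other, in contrasts that do not use the untreated arrays other than for the shared spread. Between 6 h and 24 h, 0 of 21 receptor genes passed in limma, against 2.4% of all tested genes (1.55% higher and 0.855% lower), and 3 (GRIA3, GRM7 and GLRA4) had an unadjusted p under 0.05. From 24 h to 48 h, GRIA3, GRIA4, GRM8 and GABBR1 rose and GRIK2 and GRM7 fell, which is 6 of 21 against 28.6% of all tested genes (13.5% higher and 15.1% lower). GRIA4 rose by 0.61 ± 0.09 (adjusted p = 6.93e-05), GRM8 by 0.49 ± 0.11 (adjusted p = 0.00301) and GABBR1 by 0.40 ± 0.10 (adjusted p = 0.0046). In this step the other probe set of GRIA4 changed by 0.03 (adjusted p = 0.828), that of GRM8, below the filter, by 0.02, and those of GABBR1 by 0.02 and 0.17 (adjusted p = 0.916 and 0.0771). The other probe set of GRIA2 fell (-0.56, adjusted p = 0.00855), where the set of highest mean did not pass (-0.34, adjusted p = 0.0526), and the 3 other probe sets of GRIA3 changed by -0.50 to -0.23 against 0.39 in the probe set of highest mean. The fall of GRIK2 (-0.22 ± 0.07, adjusted p = 0.0239) was lost without 24 h replicate 1 or 3 or 48 h replicate 2 or 3 (-0.21 to -0.195, adjusted p = 0.0599 to 0.072), and that of GRM7 (-0.23 ± 0.08, adjusted p = 0.0457) in 10 of the 16 fits without 1 array, with adjusted p up to 0.162 without 24 h replicate 2 (-0.16). From 6 h to 48 h, 7 of 21 passed, against 33.6% of all tested genes (16.7% higher and 17.0% lower), with GRIA3, GRIA4, GRM8 and GABBR1 higher and GRIA2, GRIK2 and GRM7 lower. The 3 other probe sets of GRIA3 fell over the same interval (-0.455, -0.52 and -0.465, adjusted p = 0.00333 to 0.005), so no direction is given for that gene here either. GRIA2 fell by 0.395 ± 0.12 between these times (adjusted p = 0.0214), a call lost without 6 h replicate 1 (-0.33, adjusted p = 0.0707), without 48 h replicate 1 (-0.25, adjusted p = 0.0665) and with only the 8 arrays compared (adjusted p = 0.0609).

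The promoters of GRIA4, GRM8 and GABBR1 are shown because their probe sets of highest mean were called at 48 h with a change of at least 0.5 from untreated. GRIN1 was also called with such a change (0.665) but had no promoter entry. In the genes shown, the probe sets of highest mean also rose from 24 h to 48 h. The rise from 24 h to 48 h passed in no other probe set of these genes. RefSeq promoter sequences on GRCh38.p14, each with 250 bases before and 50 after the start of 1 annotated transcript, were matched for 38 of the 47 receptor genes. The windows are chr11:105610456-105610755 on the plus strand for GRIA4, chr7:127252892-127253191 on the minus strand for GRM8, and chr6:29627964-29628263 on the minus strand for GABBR1. They are written 5′ to 3′ along the gene, with the GC box GGGCGG and the cyclic AMP response element TGACGTCA in capitals on either strand.
GRIA4: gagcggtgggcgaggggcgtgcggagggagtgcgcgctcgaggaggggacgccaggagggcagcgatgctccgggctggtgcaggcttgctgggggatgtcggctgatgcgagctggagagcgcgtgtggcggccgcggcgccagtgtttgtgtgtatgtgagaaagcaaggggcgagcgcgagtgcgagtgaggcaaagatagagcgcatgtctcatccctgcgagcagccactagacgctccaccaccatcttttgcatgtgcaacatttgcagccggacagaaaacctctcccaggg
GRM8: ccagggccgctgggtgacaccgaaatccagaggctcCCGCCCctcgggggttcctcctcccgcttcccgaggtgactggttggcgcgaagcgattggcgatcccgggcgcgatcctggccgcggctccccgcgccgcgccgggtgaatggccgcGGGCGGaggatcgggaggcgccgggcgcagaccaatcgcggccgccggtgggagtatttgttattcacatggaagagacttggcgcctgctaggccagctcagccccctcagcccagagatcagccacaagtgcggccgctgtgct
GABBR1: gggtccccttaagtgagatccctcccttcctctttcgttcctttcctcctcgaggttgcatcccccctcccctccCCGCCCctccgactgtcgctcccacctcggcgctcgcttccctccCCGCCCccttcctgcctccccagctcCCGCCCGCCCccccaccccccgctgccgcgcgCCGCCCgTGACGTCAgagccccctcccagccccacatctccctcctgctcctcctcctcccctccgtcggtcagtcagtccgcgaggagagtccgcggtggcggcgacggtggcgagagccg
The GABBR1 window held TGACGTCA once, ending 57 bases before the start, and GGGCGG 5 times, with 2 matches overlapping. The 8-base element was in 1 of the 38 receptor promoters and in 1.85% of 35116 promoters of this length. GGGCGG was in 20 of the 38 and in 45.0% of all promoters, with 2 matches for GRM8 and 0 for GRIA4. The GC content was 64.7% for GRIA4, 70.0% for GRM8 and 72.7% for GABBR1, beside a median of 58.7% over all promoters. Other strings were searched on both strands. TGACG, which lies within TGACGTCA, was found in 11 of 38 (24.6% of all promoters), CAGCTG in 5 (17.9%), CACGTG in 2 (7.26%), AGATAA in 3 (10.3%), TTCAGCACC in 1 (0.376%) and GGACAGC in 6 (6.03%). A match is a run of letters and does not show that a factor binds, and the probe sets do not tell which start site was used.

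With the values scaled as deposited, most tested auxiliary proteins of ionotropic glutamate receptors were called higher in transcript level. In a list of 27 auxiliary proteins of ionotropic glutamate receptors, 24 were tested, of which 18 rose and 2 fell at 6 h, 16 rose and 1 fell at 24 h, and 15 rose and 2 fell at 48 h. Of all tested genes, 36.6%, 35.3% and 36.0% were higher and 16.7%, 16.9% and 21.0% lower at the 3 times. The median change of the list was 0.25, 0.30 and 0.23, beside 0.09, 0.09 and 0.075 for all tested genes. Some rises at 6 h were small, such as CACNG3 (0.18), CPT1C (0.19) and CACNG7 (0.21). Cyclic loess scaling moved the share of calls that were higher among all genes from 68.7% to 46.2% at 6 h. No counts of the list are given under that scaling. CBLN2, a cerebellin of the family that bridges delta receptors to neurexins, rose most, by 2.335 ± 0.09 at 24 h and 2.15 ± 0.09 at 48 h, but its other tested probe set changed by 0.92 and 0.52. OLFM3, a secreted olfactomedin found in AMPA receptor complexes, rose by 1.29 ± 0.09 at 6 h and 1.32 ± 0.09 at 48 h, and its 4 other probe sets rose by 0.86 to 1.30. NETO2, an auxiliary subunit of kainate receptors, rose from 10.32 ± 0.08 to 11.05 ± 0.06 (SD, n = 4) at 48 h, by 0.73 ± 0.05, and CACNG4, an auxiliary subunit of AMPA receptors, by 0.66 ± 0.05. CNIH3, a cornichon that carries AMPA receptors through the secretory pathway, fell, with changes of -1.46 ± 0.12 at 6 h and -1.55 ± 0.12 at 48 h, from 6.43 ± 0.25 to 4.88 ± 0.19 (SD, n = 4). NPTX2, a secreted pentraxin that clusters AMPA receptors, was the other to fall at 6 h, by 0.19 ± 0.06.

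Scaffold genes of glutamate receptors followed several courses. Of 19 tested in a list of 27, 6 rose and 2 fell at 6 h, 9 rose and 3 fell at 24 h, and 10 rose and 2 fell at 48 h, with medians of 0.13, 0.14 and 0.23. With 36.6% of all tested genes higher and 16.7% lower at 6 h, the 6 h count was near the background. The shares of all tested genes were 35.3% higher and 16.9% lower at 24 h, and 36.0% higher and 21.0% lower at 48 h. DLG4, the postsynaptic density protein PSD-95 that anchors NMDA receptors, rose at 6 h by 0.36 ± 0.09, at 24 h by 0.455 ± 0.09 and at 48 h by 1.00 ± 0.09, with a rise of 0.54 ± 0.09 from 24 h to 48 h (adjusted p = 0.00039). Of its other probe sets, that with a mean of 6.14 changed by 0.87 at 48 h and those with means of 3.40 and 3.67 by 0.245 and 0.095. HOMER3, which links metabotropic glutamate receptors to calcium stores, fell, with changes of -1.035 ± 0.07 at 6 h and -1.22 ± 0.07 at 48 h, and its other probe set changed by -1.195 to -0.845.

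In a list of 25 partners of GABA and glycine receptors, 21 were tested, and 8 rose and 3 fell at 6 h, 7 rose and 2 fell at 24 h, and 7 rose and 5 fell at 48 h. The shares of all tested genes at these times were 36.6%, 35.3% and 36.0% higher and 16.7%, 16.9% and 21.0% lower. The medians of 0.09, 0.055 and 0.04 were close to those of all tested genes. KCTD12, an auxiliary subunit that makes GABA-B responses desensitise, fell, with changes of -0.16 ± 0.06 at 6 h, -0.56 ± 0.06 at 24 h and -1.28 ± 0.06 at 48 h, from 9.69 ± 0.06 to 8.405 ± 0.04 (SD, n = 4). KCTD12 was lowest at 48 h, when the probe set of highest mean of GABBR1 was highest, and a relation between them was not tested. The 4 other probe sets of KCTD12 changed by -1.51 to -0.35 at 48 h. PLCL1, which binds GABA-A receptor trafficking proteins, fell, with changes of -1.25 ± 0.08 at 6 h and -0.48 ± 0.08 at 48 h, and with a rise of 0.74 ± 0.08 from 24 h to 48 h (adjusted p = 5.45e-06). LHFPL4, which ties GABA-A receptors to neuroligin 2, rose by 0.555 ± 0.06, 0.705 ± 0.06 and 0.52 ± 0.06, while its other probe set changed by -0.14 to 0.06. The receptor-associated protein gene GABARAPL2 rose by 0.26 ± 0.04 at 48 h.

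**Figure D4:**
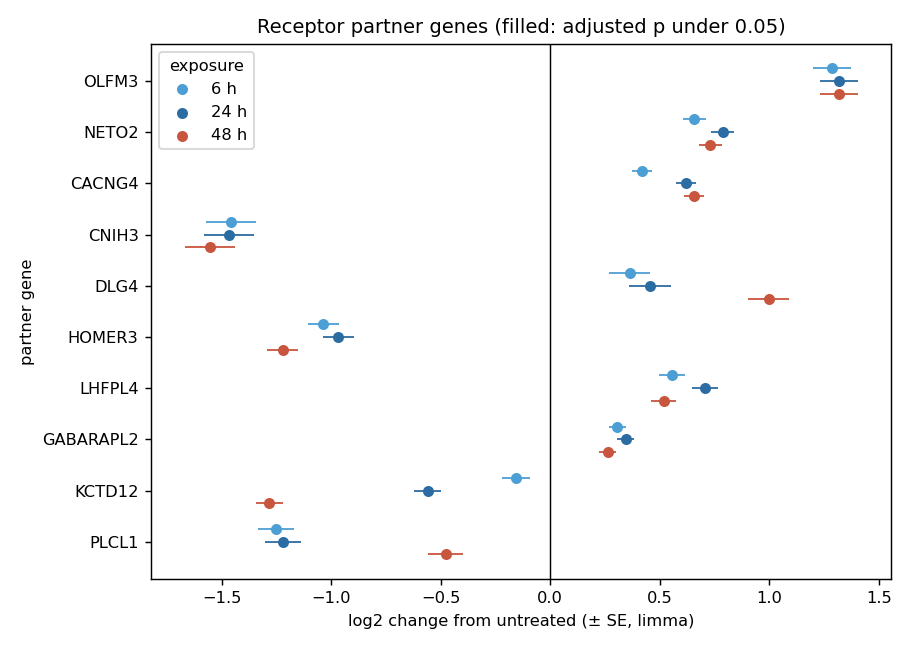
Log2 change from untreated with standard errors for 10 partner genes of the receptors at 6, 24 and 48 h (limma, n = 4 arrays a group). Filled points passed an adjusted p of 0.05, as all points here did. DLG4 and KCTD12 move farther from 0 at 48 h, in opposite directions, while PLCL1 moves back toward 0.

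Genes that supply the transmitters were also listed. Of 8 tested genes of GABA synthesis, transport and breakdown, 1 rose and 2 fell at 6 h and at 24 h, and 2 rose and 2 fell at 48 h, with medians of 0.035, 0.10 and 0.10. Among all tested genes, 36.6%, 35.3% and 36.0% were higher and 16.7%, 16.9% and 21.0% lower at 6 h, 24 h and 48 h. The GABA-forming enzymes GAD1 and GAD2 and the vesicular GABA transporter SLC32A1 were dim, with untreated means of 3.30, 3.46 and 3.50. ABAT, which breaks GABA down, rose by 0.51 ± 0.05 at 6 h and 48 h, and the chloride importer SLC12A2 fell, with changes of -0.45 ± 0.09 at 6 h and -0.295 ± 0.09 at 48 h. Of 17 tested genes of glutamate and glycine supply, 6 rose and 2 fell at 6 h, 7 rose and 2 fell at 24 h, and 7 rose and 4 fell at 48 h, with medians of 0.075, 0.10 and 0.14. These counts were near the 36.6%, 35.3% and 36.0% higher and 16.7%, 16.9% and 21.0% lower of all tested genes. The vesicular glutamate transporter SLC17A6 was dim, SLC17A7 and SLC17A8 changed by -0.035 to 0.19 and the glycine transporter SLC6A5 by -0.08 to 0.075, and none of these passed. The glycine cleavage enzyme gene GLDC rose by 0.55 ± 0.08 at 6 h and 0.75 ± 0.08 at 48 h. The neuronal glutamate transporter SLC1A1 rose by 2.30 ± 0.10 at 24 h and 2.07 ± 0.10 at 48 h, and its other tested probe set changed by 0.26 and 0.20. SLC7A11, the exchanger that exports glutamate for cystine, fell, with changes of -1.25 ± 0.13 at 6 h and -1.42 ± 0.13 at 48 h. Its 2 other probe sets changed by -2.415 and 0.27 at 48 h.

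Markers of the 2 cell identities known in SK-N-SH cultures moved with exposure. For the counts of markers below, the shares of all tested genes at 6 h, 24 h and 48 h were 36.6%, 35.3% and 36.0% higher. The shares lower were 16.7%, 16.9% and 21.0%. All 23 mesenchymal markers were tested, and 22 fell at each time, with 1, TWIST1, higher at 48 h. Their mean log2 level lay between 9.14 and 9.36 on untreated arrays, 6.55 and 6.95 at 6 h, 6.86 and 6.96 at 24 h, and 6.69 and 6.85 at 48 h. Of 17 tested adrenergic markers, 17 rose at 6 h and 16 at 24 h and 48 h, with 0 falls, and their mean level was 9.91 to 9.95 on untreated arrays, 10.41 to 10.46 at 6 h, 10.48 to 10.50 at 24 h and 10.53 to 10.58 at 48 h. The part of this shift in the receptor changes was not tested, and in RNA from whole cultures fewer cells of a type and less RNA per cell cannot be told apart. Central neuron markers stayed near the bottom of the scale, with 3 of 11 tested, 1 rise at 6 h (RBFOX3) and none passing at 24 h or 48 h, and a mean level of 3.53 to 3.70 over all arrays. Of 7 tested astrocyte markers, 1 rose and 3 fell at 6 h, 2 rose and 3 fell at 24 h and 48 h, and the mean level was 4.97 to 5.02 on untreated and 4.41 to 4.635 on treated arrays, while GFAP had group means of 3.63 to 3.79 and AQP4 was dim. The largest falls at 6 h were of GJA1 (-3.29) and SOX9 (-2.43), and S100B rose (0.605). The median change of the tested astrocyte markers was 0.01, -0.01 and -0.13 at 6 h, 24 h and 48 h. Of 3 tested oligodendrocyte and Schwann cell markers, 1 rose and 1 fell at 6 h and 48 h and 2 rose and 1 fell at 24 h, with a mean level of 3.67 to 3.89 over all arrays and MOG, MAG, OLIG1 and OLIG2 dim.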

How the data were processed

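The table holds log2 expression values per probe set, which the authors deposited after RMA, per the submitters' processing notes. The software version is not given in the sources used here. RMA equalises the distributions of the arrays, so a change in total RNA per cell cannot be seen.

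Of 49386 probe sets, 45253 had a single gene symbol in GEO's platform annotation, and each gene was read from the one of highest mean over the 16 arrays. Whether probe sets of 1 gene measure the same transcripts was not known, and no detection call was used. The members and companion lists were chosen with earlier results of these data known, and list counts are descriptions.

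Differences were tested in limma 3.58.1 with R 4.3.3 (lmFit and eBayes, all 16 arrays, a mean per group, two-sided). Benjamini-Hochberg adjustment ran over all 13680 tested genes within each contrast, at 0.05. Values after ± are standard errors unless given as SD. Array values are given for receptor genes called with a change of at least 0.5 from untreated and for the gene of highest mean in each class. For GABRR2 and for the treated arrays of GRID1 they are given as ranges. Companion genes named were up to 3 of smallest p per list, direction and contrast. The transmitter genes GAD1, GAD2, SLC17A6, SLC17A7, SLC17A8, SLC32A1 and SLC6A5 are named in any case. Other probe sets of a gene were tested in a separate limma fit of all single-symbol probe sets above the same filter. Alternatives changed the probe set rule, the filter, the scaling, the test, the block and the arrays used.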

Additional observations from a re-analysis of the deposited data

Results flagged for a closer look

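In 7 of 84 pairs of a tested receptor gene and a group (8.33%), 1 array stood apart from the other 3 by Dixon's criterion, where chance gives about 1 in 20. GRIA1 measured 4.01 in 24 h replicate 4, against 3.68 to 3.71 in the others. GRIK3 measured 4.42 in untreated replicate 1, against 3.84 to 3.93, and 4.09 in 48 h replicate 2, against 4.30 to 4.32. GRID1 measured 4.32 in untreated replicate 4, against 4.51 to 4.54. GABRA2 measured 3.71 in untreated replicate 4, against 3.65 to 3.66. GABBR1 measured 6.74 in 48 h replicate 4, against 6.32 to 6.37. GLRA4 measured 3.85 in 48 h replicate 3, against 3.76 to 3.77.

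For 7 genes the change from untreated differed between exposure times in a direct limma contrast, with n = 4 arrays a group. From 6 h to 48 h the difference was 0.76 for GRIA4, 0.54 for GRIA3 in its probe set of highest mean, and 0.455 for GABBR1. It was -0.395 for GRIA2, -0.41 for GRM7 and -0.25 for GRIK2. For GRM8 it was 0.49 from 24 h to 48 h.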

How the results depend on the processing

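With the lowest 50% of genes left out, 4 receptor genes remained tested, and 2 were called at 6 h, 1 at 24 h, 1 at 48 h, 3 from 24 h to 48 h and 3 from 6 h to 48 h. With at least a 1.5-fold change required, the counts were 2, 2, 3, 1 and 1. No share of all tested genes is given for the settings in this section, so these counts are not read against a background. Among the alternatives run, values opposite in sign to a call arose between probe sets and under no other setting. Such values were counted whether or not they passed themselves. Probe sets below the filter were not counted. Among those, GRIK2 had changes of -0.14 to -0.04 at 6 h and GABRA3 one of -0.07 at 48 h, opposite in sign to the calls. For GRIA3, the 48 h change was -0.59 in the mean of its probe sets and -0.91, -1.155 and -0.62 in the other sets. From 24 h to 48 h these were -0.17, -0.23, -0.325 and -0.50, and from 6 h to 48 h the mean gave -0.23. Another probe set gave 0.055 for GRIK2 from 24 h to 48 h (limma, adjusted p = 0.6) and -0.065 for GABBR1 at 48 h (adjusted p = 0.563). Neither of these passed. The cause was not tested. The alternatives that test each other probe set and that leave out GRIA3 were chosen after seeing the data.

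Leaving out 1 array at a time gave 7 to 9 calls at 6 h, 6 to 9 at 24 h, 9 to 10 at 48 h, 0 from 6 h to 24 h, 4 to 6 from 24 h to 48 h and 6 to 7 from 6 h to 48 h. Deviations from group means correlated at -0.15 to 0.18 over 24 pairs of same-numbered replicates, with a median of 0.05. Over 72 pairs with other numbers they correlated at -0.29 to 0.26, with a median of -0.02. These correlations cannot show whether equal numbers mark a shared culture or batch, which the labels do not state. With the replicate block the counts were 8, 8, 9, 0, 6 and 7. The 4 arrays a group limit precision, and genes near the filter have little signal over background.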

Other observations

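Among receptor genes too dim for the main test, a few passed when limma was run without the filter (n = 4 arrays a group). GABRD, the delta subunit of extrasynaptic GABA-A receptors, measured 3.32, 3.60, 3.29 and 3.35 in untreated cells and 3.55, 3.72, 3.61 and 4.11 at 48 h, a difference of 0.36 (adjusted p = 0.0103). At 24 h GABRD was higher by 0.31 (adjusted p = 0.026). GRM6 was higher by 0.325 at 24 h (adjusted p = 0.00354). At 48 h GABRP was higher by 0.28 (adjusted p = 0.0114), GABRR3 by 0.16 (adjusted p = 0.0181) and GRIN3B by 0.16 (adjusted p = 0.0365). GRIN3A was higher by 0.27 at 48 h than at 6 h (adjusted p = 0.0364). GRM5 was the 1 dim member called lower, at 6 h (-0.14, adjusted p = 0.0478). These levels lie near the bottom of the scale, and whether the transcripts were present was not tested.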
